A study of Drosophila melanogaster with 3 samples.

Results

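Of 4371 reproducible binding sites of the transcription factor Myc in whole fly embryos, 780 lay on the X chromosome and 3591 on the autosomes. The sites are the peaks of a chromatin immunoprecipitation sequencing (ChIP-seq) experiment that passed a filter on the irreproducible discovery rate (IDR), which keeps peaks that rank alike in the replicates. A site belongs to the X set if its peak carries that chromosome name in the dm6 genome, so no measured value chose it. The samples were 3 biological replicates of Drosophila melanogaster embryos aged 0 to 16 h, with both sexes pooled. All came from a single transgenic strain in which the fly Myc protein, the product of diminutive (dm, current symbol Myc), carries green fluorescent protein at its C terminus. Chromatin was precipitated through that tag. The samples form 1 group with no treatment, so the comparison is between chromosomes, and a whole embryo mixes all its cell types and stages.

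Myc is a basic helix-loop-helix protein that binds DNA as a dimer with Max, most tightly at the E-box CACGTG. It drives the genes of ribosome production and cell growth, and Mnt, another partner of Max, competes with it as a repressor. Both Myc and Mnt are X-linked genes in this species. The X itself differs from the autosomes in that males carry a single copy, whose transcription is raised by the dosage compensation complex, a ribonucleoprotein built with the roX RNAs and the acetyltransferase mof.

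The first set of sequences shows the E-box at the 6 strongest X peaks that had it within 50 bp of the summit. Each is 30 bases of the dm6 plus strand, written 5′ to 3′, and capitals mark CACGTG and, at l(1)G0004, the core promoter word GGTCACAC. The sites lie at chrX:15710554-15710583, chrX:5672765-5672794, chrX:15139297-15139326, chrX:13154913-13154942, chrX:20391450-20391479 and chrX:15997039-15997068 in the order printed.
CG9281 and CG15601: ggagaaaggctcCACGTGgtggcgatggcg
RpL35: gttgcgttaagcCACGTGctgaatttctta
RpL37-1: ctacaaatttagCACGTGgcttctagcaaa
CG4318 and CG4332: atagtttggaaaCACGTGctaggaacgacc
l(1)G0004: GGTCACACtgagCACGTGgagcagacaaag
CG8939: cactgttggcaaCACGTGcacgaattcgac

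The second set shows the 101 bases around the summits of the 3 strongest X peaks without the E-box, followed by those of the 2 strongest X peaks in introns, which were added after their values were seen. They lie at chrX:2703846-2703946, chrX:2137295-2137395, chrX:12751389-12751489, chrX:4910326-4910426 and chrX:3742178-3742278 on the plus strand. None has any of the words marked in capitals elsewhere.
Ugalt promoter: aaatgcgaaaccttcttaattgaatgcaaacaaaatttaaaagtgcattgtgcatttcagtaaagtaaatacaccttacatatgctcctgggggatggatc
ph-p promoter: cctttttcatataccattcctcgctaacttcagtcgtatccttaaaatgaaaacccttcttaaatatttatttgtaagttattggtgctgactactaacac
Vinr peak: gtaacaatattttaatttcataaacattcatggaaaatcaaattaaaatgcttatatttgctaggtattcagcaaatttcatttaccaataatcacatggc
CG32772 intron: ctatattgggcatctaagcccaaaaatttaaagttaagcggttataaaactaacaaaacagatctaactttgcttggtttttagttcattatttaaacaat
Tlk intron: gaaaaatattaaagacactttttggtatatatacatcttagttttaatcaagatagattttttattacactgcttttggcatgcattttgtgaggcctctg

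The third set shows the peaks at the promoters of Myc (chrX:3373169-3373198) and its antagonist Mnt (chrX:3687996-3688096). The Mnt promoter here is that of an internal start, so the peak lies inside the gene. Capitals mark the non-canonical E-box CACGCG at Myc, which reads CGCGTG on the plus strand, and CACGTG at Mnt.
Myc promoter: tttctgtggcgtCGCGTGttcagttcaccg
Mnt promoter: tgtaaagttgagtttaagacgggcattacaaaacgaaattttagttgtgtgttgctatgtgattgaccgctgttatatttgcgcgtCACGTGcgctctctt

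X had about as many Myc peaks as its length. It held 17.8% of the peaks and 17.6% of the bases of the main arms, which gave 33.1 peaks per Mb on X and 32.5 on the autosomes, where the 4 large arms ranged from 30.2 to 34.6. X has fewer protein-coding genes per Mb (93.3 against 106.5), and its peaks per 100 genes were 35.5 against 30.6. Each replicate gave a similar share. A replicate's top list, its 4371 strongest peaks before the IDR filter, had 773, 720 and 818 peaks on X in replicates 1, 2 and 3.

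Replicate 3 stood apart from the other replicates in where its strong peaks lay, on X and on the autosomes alike. The relative signal of a peak used here is its signal in a replicate, the peak caller's own score, as a multiple of the median of that replicate's IDR peaks. At the 195 X intron peaks found in all replicates, the median relative signal was 0.847, 0.816 and 1.13 in replicates 1, 2 and 3, and replicate 3 was the highest at 67.2% of them. At the 47 such X peaks with CACGTG the medians were 1.70, 1.77 and 1.21, and replicate 3 was the lowest at 76.6%. On the autosomes, too, replicate 3 was highest at 58.5% of intron peaks and lowest at 82.9% of those with CACGTG. Peak classes, the E-box by class and the share of X among the strongest peaks are therefore also given without it, from summits shared by the top lists of replicates 1 and 2, of which 485 lay on X and 2346 on the autosomes.

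Fewer of the X peaks lay at promoters and more lay in introns than on the autosomes. A peak was placed at a promoter if its summit was within 500 bp of a start of a protein-coding gene, and otherwise in an exon, an intron or intergenic sequence. Only protein-coding genes were used for these classes, so an intergenic peak can lie in a non-coding gene. Promoters held 497 of the 780 X peaks (63.7%, 95% Wilson interval 60.3 to 67.0%) and 2494 of the 3591 autosomal peaks (69.5%, 67.9 to 70.9%), with an odds ratio of 0.772 (two-sided Fisher's exact test over peaks, adjusted p = 0.0194). Introns held 214 X peaks (27.4%, 24.4 to 30.7%) against 690 autosomal peaks (19.2%), an odds ratio of 1.59 (adjusted p = 1.2e-05, Fisher's exact test). Intron sequence outside promoters makes up 41.1% of X and 38.9% of the autosomes, a smaller gap than that between the peaks. Intergenic sequence held 52 X peaks (6.67%) and 360 of the 3591 autosomal peaks, with an odds ratio of 0.641 (adjusted p = 0.0194, Fisher's exact test), while it makes up 26.8% and 30.7% of bases. Of these intergenic peaks, 11 on X and 56 on the autosomes were at the start of a non-coding gene. Exons away from promoters held 17 X peaks (2.18%) and 47 autosomal ones (1.31%), and this difference did not pass the test (adjusted p = 0.178, Fisher's exact test). P-values were adjusted over 20 comparisons of X with the autosomes, of which these 3 passed, and neighbouring peaks are not independent of each other.

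The intron share stood above that of each large autosome arm, whereas the promoter and intergenic shares did not. Introns held 18.6 to 19.8% of the peaks of 2L, 2R, 3L and 3R. The intergenic share of X was close to that of 3R (6.54%) and 2R (8.15%) and below that of 2L (12.5%) and 3L (13.4%), and against 3R alone the odds ratio was 1.02. The promoter share of X did not differ past the threshold from that of 2L (67.2%) or 3L (66.1%) taken alone. By replicate, introns held 193 of 773, 181 of 720 and 284 of 818 X peaks in the top lists of replicates 1, 2 and 3, against 18.1, 18.4 and 22.6% of the autosomal ones. X was higher by 8.58 percentage points ± 3.06 (SD, n = 3) and higher in every replicate, and an exact sign-flip test over 3 replicates gives p = 0.25, the smallest it can give. Replicate 3 had the largest gap. Without it, introns held 24.9% of X peaks and 15.7% of autosomal peaks (odds ratio 1.78), and promoters 68.2% and 75.7% (odds ratio 0.69). The intergenic shares were then 5.57% and 7.46%, and that difference no longer passed the test (odds ratio 0.731, unadjusted p = 0.147, Fisher's exact test). Nor did it without replicate 1 (odds ratio 0.717, unadjusted p = 0.106, Fisher's exact test).

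**Figure D1:**
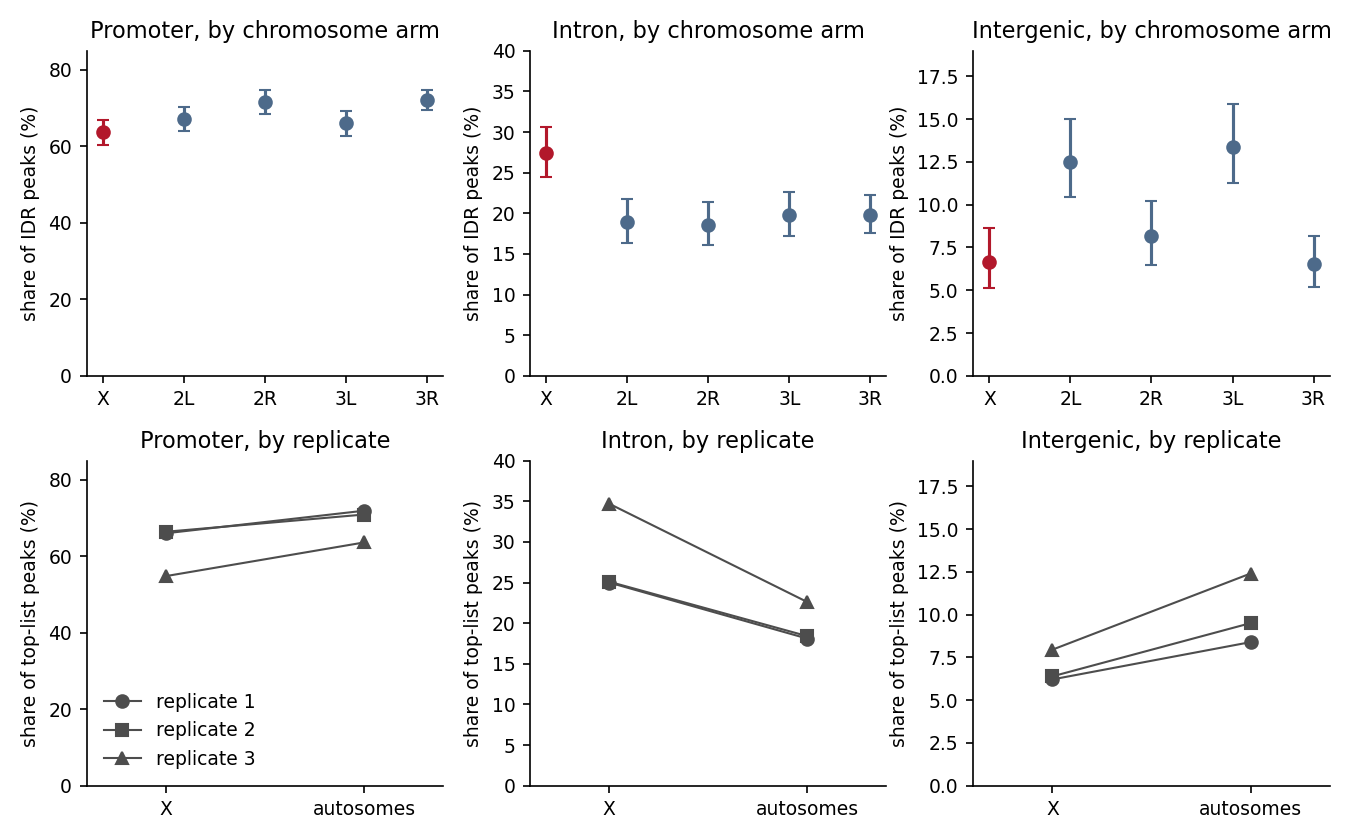
Share of peaks at promoters, in introns and in intergenic sequence (%). Upper row: IDR peaks of X (red) and the large autosome arms (blue) with 95% Wilson intervals; the intron share of X (27.4%) lies above those of the arms (18.6 to 19.8%). Lower row: the same shares of X and autosomal peaks in the top list of each replicate, joined by a line; replicate 3 has more intron peaks on both.

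The X intron peaks were spread over 134 protein-coding genes. A peak was counted for every coding gene that overlapped it, so nested genes can share a peak and the genes are not all independent. Of the 2196 X genes, 6.10% held an intron peak, against 4.01% of the 11749 autosomal genes (471 genes; odds ratio 1.56, adjusted p = 9.1e-05, Fisher's exact test over 4 comparisons chosen after seeing the data). X had 22.1 intron peaks per Mb of intron and the autosomes 16.1. Gene length moved with the result, as 9.02% of X genes and 6.94% of autosomal genes were longer than 20 kb. Within genes of over 20 kb, 32.8% on X and 27.6% on the autosomes held an intron peak (odds ratio 1.28, adjusted p = 0.214, Fisher's exact test), and within genes of 5 to 20 kb the shares were 12.2% and 10.7% (odds ratio 1.17, adjusted p = 0.358). Neither class passed the test. Genes of up to 5 kb did, with 14 of 1549 on X and 30 of 8914 on the autosomes (odds ratio 2.70, adjusted p = 0.00842, Fisher's exact test). Several of these X summits lay just outside the promoter window, at 527 bp in CG4615, 537 bp in Marf and 563 bp in Ran. That of CG8097 was further away, at 1141 bp. The length classes were not recounted with other promoter windows.

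Several X genes carried rows of intron peaks. The gene CG1677 held 11 within its 124.7 kb, where brk, unc-119, Atg5, Dok and CBP are nested and supply many of the nearest starts. The gene kirre, which codes for an adhesion protein of myoblast fusion, held 9 within 394.1 kb, with signals of 111.0 to 361.0 and no promoter peak. Tlk, which codes for Tousled-like kinase, a chromatin-assembly kinase, held 8 with signals of 120.4 to 898.8. Raf, the kinase between Ras and the MAP kinase pathway, held 7 with signals of 204.9 to 732.6. The nuclear receptor gene Hr4 and the forkhead gene CHES-1-like held 7 each, and the Rel-family factor gene NFAT and CG14434 held 5 each, up to 695.8 and 277.6. In all, 38 X genes had 2 or more intron peaks, and 46.3% of the 134 also had a promoter peak. The genes named are those with 5 or more intron peaks, a limit chosen after the values were seen. The X intron summits lay a median of 2240 bp from the nearest coding start, and 25.2% were over 5 kb away; on the autosomes the median was 2160 bp and that share 27.8%.

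X intron peaks seldom had the E-box. Their median signal was 166.4 (110.8 to 1049.6), and that of X promoter peaks was 176.6. CACGTG lay within 50 bp of the summit at 4 of 214 X intron peaks (1.87%) and at none of the 52 intergenic X peaks, against 43 of 497 X promoter peaks (8.65%). On the autosomes it lay at 28 of 690 intron peaks (4.06%) and 20 of 360 intergenic peaks (5.56%). Without replicate 3 the intron shares were 4.96% on X and 5.15% on the autosomes, and without replicate 1 X was the higher, at 4.72% against 3.39%. The X promoter share was then 13.0% and 11.6%, so that X intron peaks had the word less often than X promoter peaks in each case, a description with no test. The DNA at X intron summits was poor in G and C, with a median of 34.7% over 101 bases, while X promoter peaks had 42.6% and the whole of X 42.5%. Autosomal intron peaks were similar, at 35.6%.

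The strongest X peak lay at Ugalt, which codes for a transporter of UDP-galactose into the Golgi. Its summit was 44 bp upstream of the start (-44 bp), its IDR signal was 1764.9, the fourth highest of the whole list, and its relative signal was 7.33, 6.89 and 14.2 in replicates 1, 2 and 3. The value in replicate 3 was about as large as those of the other replicates together. The Polycomb group gene ph-p followed with 1265.5 and relative signals of 5.63, 5.25 and 10.2. Its summit was 490 bp upstream of an internal start (-490 bp), so it lay inside the gene and close to the edge of the promoter window. RpL22, which codes for a protein of the large ribosomal subunit, reached 1081.0, but here replicate 3 was the lowest, with 6.73, 6.53 and 4.53.

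Among the 10 strongest X promoter peaks, replicate 3 was highest at all but RpL22 and CG3071. Atf3, a bZIP transcription factor gene, had a signal of 833.5 and relative signals of 4.01, 3.78 and 5.74. TRAM, whose product helps nascent chains into the endoplasmic reticulum, had 791.1, with 3.66, 3.85 and 5.36. The others were MFS10, a gene of the major facilitator family of transporters (719.5), CG3071 with its neighbour temp (636.8), CG17896 (620.8), bves with Stt3A, a subunit of the oligosaccharyltransferase (613.9), and dnc, the cAMP phosphodiesterase gene dunce (593.1). CG17896 was at the edge of the promoter window, at -500 bp. The summits at MFS10, bves and dnc lay inside those genes, upstream of an internal start. None of these 10 peaks had CACGTG within 50 bp of the summit.

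The 5 strongest X peaks outside promoters behaved alike between replicates. The strongest of them lay in the long non-coding RNA gene Vinr, 428 bp upstream of the non-coding gene CR44619, with an IDR signal of 1218.8 and relative signals of 6.25, 5.02 and 8.62. A second peak of 842.5 lay inside CR44619, with 3.58, 3.45 and 6.43. The intron peak of CG32772 had a signal of 1049.6, with 4.72, 4.37 and 7.70, and that of Tlk had 898.8, with 4.02, 4.50 and 5.99. An intron of LPCAT, which codes for an acyltransferase of phospholipid remodelling, held the last, at 768.9, with 3.84, 3.34 and 5.14. Replicate 3 was highest at each, and none had the E-box. The 20 strongest X peaks had a median of 32.2% G and C and the 20 strongest autosomal peaks had 41.6%.

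**Figure D2:**
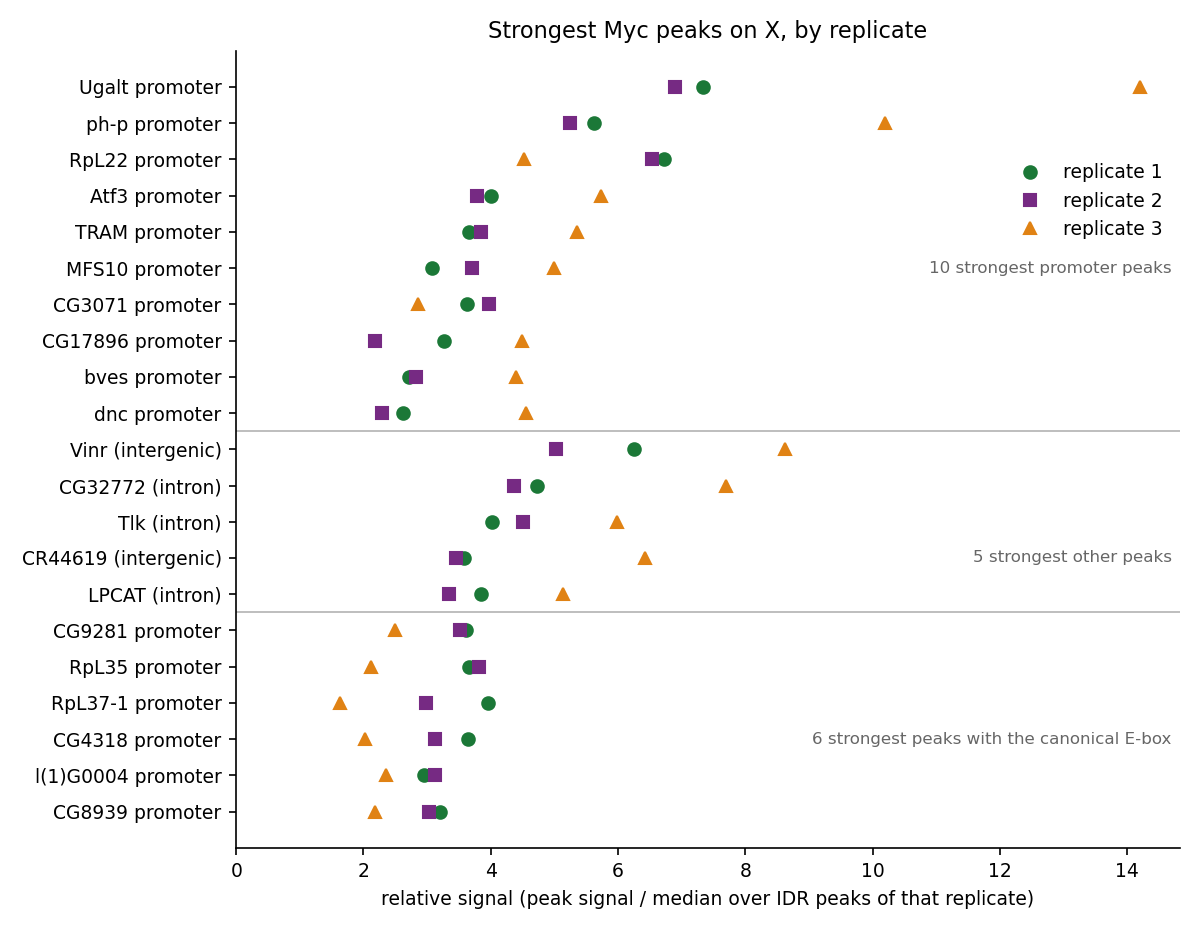
Relative signal (peak signal as a multiple of that replicate's IDR median) in replicates 1, 2 and 3 at the 10 strongest X promoter peaks, the 5 strongest other X peaks and the 6 strongest X peaks with CACGTG. Replicate 3 is the highest at 13 of the upper 15 peaks, reaching 14.2 at Ugalt, and the lowest at the 6 with CACGTG.

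About the same share of genes was bound at the promoter on X and on the autosomes. A protein-coding gene was called bound if an IDR summit lay within 500 bp of one of its starts, which can be internal to the gene. By that rule 581 of 2196 X genes were bound (26.5%, Wilson interval 24.7 to 28.3%), 3038 of 11749 autosomal genes (25.9%, 25.1 to 26.7%), and 26.0% of all. The odds ratio was 1.03 (adjusted p = 0.7, Fisher's exact test). In the top lists X was at 25.5% ± 1.80 and the autosomes at 25.1% ± 0.973 (SD, n = 3), a difference of 0.437 points ± 0.901. Of the bound X genes, 490 had 1 promoter peak, 82 had 2 and 9 had 3 or more. The genes dnc, inc and Ptpmeg2 had 4 each. Peaks of a gene need not be separate sites, as the 2 at spoon had summits 199 bp apart in the same interval. X promoter peaks reached 2 or more genes at 36.4% of sites and autosomal ones at 40.3% (odds ratio 0.847, adjusted p = 0.197, Fisher's exact test), so at such sites the peak cannot be assigned to a single gene. Such sharing is not marked at every gene named below.

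The listed genes for making ribosomes were bound on X in nearly every case. All 15 X genes for cytosolic ribosomal proteins had a promoter peak, set against the 26.5% of X genes in general, and the median signal of those peaks was 460.4 (202.4 to 1081.0). RpL22 led with 1081.0, then RpL35 with 581.0 and RpS5a with 574.9; only RpL35 and RpL37-1 had CACGTG by the summit. RpS14a (202.4) and RpS14b (290.0) are near-identical neighbours, so reads from them may be shared. Each of the 15 was also bound in the top list of every replicate. In the list for ribosome biogenesis and the nucleolus, 12 of 13 X genes were bound, with a median of 461.3, and 6 of them had CACGTG. That list was put together by symbol with earlier results of these data known, so its share is a description and no test. CG3071 (636.8), Mybbp1A (545.7, whose peak is shared with RpL36) and CG8939 (519.5) were the strongest. The unbound member was CG2972.

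Other genes of protein synthesis were bound less uniformly, in small counts to be read against the 26.5% of all X genes. The 3 X genes for aminoacyl-tRNA synthetases, the enzymes that charge tRNAs, were all bound: HisRS at 366.1, ArgRS at 319.1 and LysRS at 242.5. Each of these peaks was shared with another gene, and the summit at HisRS was as close to a start of Bx. Of 7 translation factor genes 3 were bound, led by eIF2alpha (316.0), a subunit of the factor that brings initiator tRNA, with eIF4H1 (234.9) and eIF2Bepsilon (187.4); eIF2Bbeta, eIF3g1, eIF4E7 and eIF5 were not. Mitochondrial ribosomal proteins had 4 of 11 X genes bound, the strongest being mRpL33 (213.9), mRpS14 (174.7) and mRpL16 (132.6). All 4 shared their peak with another gene. The summit assigned to mRpL33 was 355 bp upstream of its start (-355 bp) and closer to norpA (-40 bp). The polymerase subunits Polr3A (136.1) and Polr2A (127.2) were bound by weak peaks, neither in the top list of replicate 3, and Polr3I was not.

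Growth and metabolism genes gave mixed counts, to be read against the 26.5% of all X genes. Of 13 X genes of oxidative phosphorylation 6 were bound, with COX6B at 312.3, ND-ASHI at 237.6 and ND-24 at 213.6. The peaks of these named genes were each shared with a neighbouring gene. In nucleotide synthesis, ras, the gene of IMP dehydrogenase, was bound at 350.1 and r, the gene of the first enzymes of pyrimidine synthesis, at 240.4, while Paics was not. In growth signalling, sgg, the fly GSK3 kinase gene, was bound at 461.2, upstream of an internal start. The gene raptor, for a subunit of the TOR complex, was bound at 112.3, while Nprl2, S6kII and rictor were not. Replication and cell cycle genes had 4 of 7 bound, led by Cdc45 (232.0), Cdk7 (194.6) and Rbf (134.1), with Mcm3, Mcm6 and Psf3 unbound. The peaks at Cdc45 and Cdk7 were shared with Rpp21 and snf. Zw, which codes for glucose-6-phosphate dehydrogenase, had a weak promoter peak of 114.3 and a stronger intron peak of 509.4. None of the 6 X proteasome genes was bound, against 15 of 42 on the autosomes. In the top list of replicate 1, 2 of the 6 were bound, and 4 had a promoter peak in the relaxed list of the pooled replicates. The share of all X genes with such a relaxed peak was not counted.

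Genes of patterning and of specialised tissues were bound at or below the general rate. Of 34 X genes for embryonic patterning and signalling 7 were bound (20.6%), led by ph-p, sgg and ph-d (224.3). The Notch receptor gene N had a promoter peak of 162.4 with relative signals of 1.08, 1.05 and 0.473, and a stronger intron peak of 330.0. Relaxed promoter peaks were present at 24 of the 34. How many of all X genes have such a relaxed peak was not counted, so these counts have no general rate beside them. No IDR peak lay at the promoters of the 31 X genes for chemoreceptors and odorant-binding proteins, the 8 for cuticle proteins or the 13 for egg shell, yolk and glue proteins. Relaxed promoter peaks were present at 3 of the chemosensory genes, Obp19a, Obp19d and Or7a, and at none of the others. The pigment genes y and w were unbound too.

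**Figure D3:**
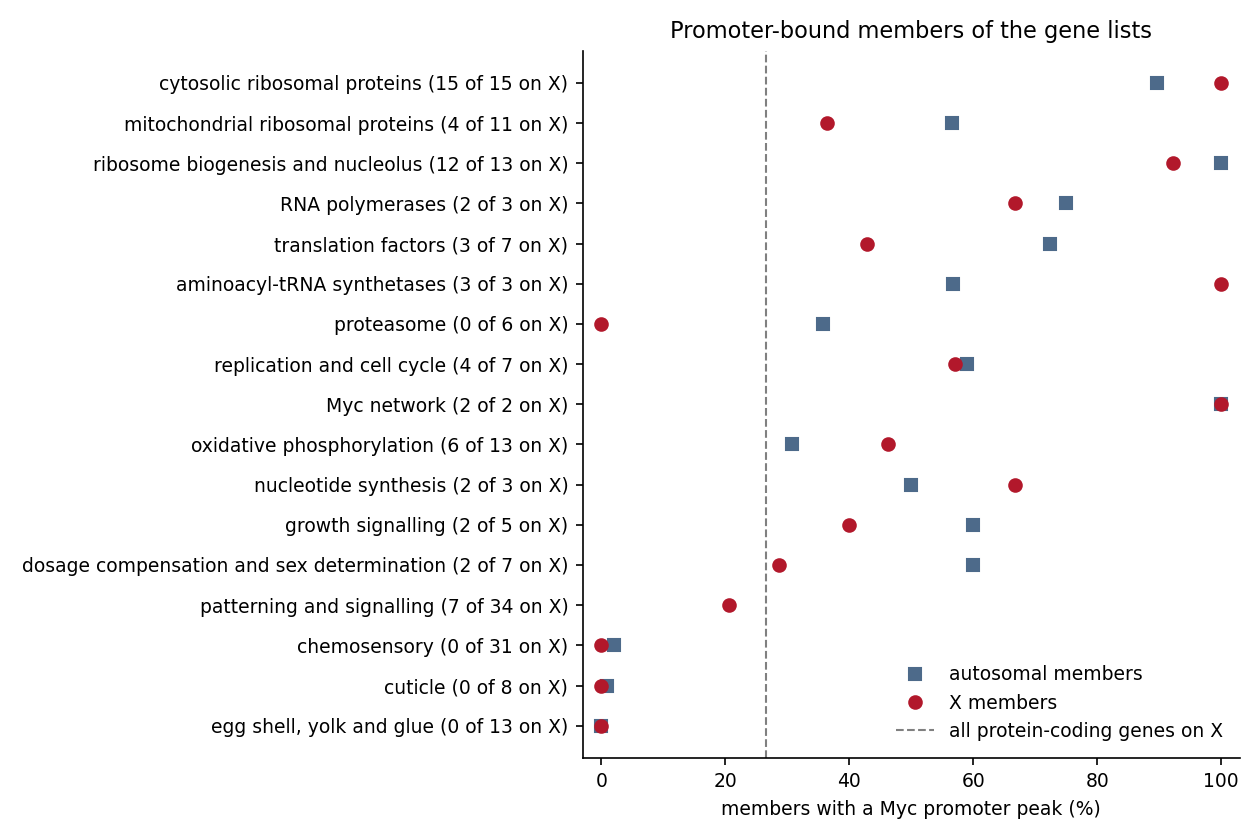
Percentage of the members of each gene list with a Myc promoter peak, for X members (red circles) and autosomal members (blue squares; not drawn for a list with a single autosomal gene), with the share of all protein-coding genes on X (26.5%) as a dashed line. Cytosolic ribosomal protein and ribosome biogenesis genes lie at or above 89.7% on X and autosomes, mitochondrial ribosomal proteins at 36.4% and 56.5%, and chemosensory, cuticle and egg shell genes near 0.

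Genes tied to the sex-specific state of X were bound at about the general rate. In the list for dosage compensation and sex determination 2 of 7 X genes were bound: snf, a splicing factor that acts with Sxl, at 194.6, by a peak shared with Cdk7, and Sxl, the switch gene of female development, at 186.6. The relative signal at Sxl was 1.34, 0.25 and 1.31, so replicate 2 was far below the others. The acetyltransferase gene mof was unbound, as were run, sc, sisA and upd1, which count X chromosomes in the early embryo. Of the RNAs of the dosage compensation complex, roX1 had a summit 75 bp from one of its starts, with a signal of 171.8, near the X median. The nearest summit to the start of roX2 was 1574 bp away, with 142.8.

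X and autosomal peaks had close median signals, while fewer of the very strongest peaks lay on X. Their signal had a median of 172.1 (110.5 to 1764.9), against 176.3 on the autosomes, with medians of 170.7 to 179.1 on the large arms. The share above the median of all peaks was 48.5% on X and 50.3% on the autosomes (odds ratio 0.928, adjusted p = 0.559, Fisher's exact test). In the 3 top lists the X share was lower by 1.51 points ± 0.713 (SD, n = 3). X held 55 of the 438 strongest peaks of the list (12.6%, Wilson interval 9.78 to 16.0%) and 16.2 to 20.6% of each following group of 437, a description with no test. Without replicate 3 it held 32 of the 284 strongest (11.3%), and without replicate 1 it held 8.88% of the 259 strongest. It held 9 of the 100 strongest peaks. Of the 780 X peaks, 390 had a summit within 100 bp in all 3 top lists, and 51.6% of autosomal peaks did (odds ratio 0.937, adjusted p = 0.572, Fisher's exact test).

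The E-box CACGTG was found at close shares of X and autosomal peaks. It lay within 50 bp of 48 X summits (6.15%, Wilson interval 4.67 to 8.06%) and 215 autosomal summits (5.99%, 5.26 to 6.81%), with an odds ratio of 1.03 (adjusted p = 0.868, Fisher's exact test). At promoter peaks alone the shares were 8.65% and 6.50% (odds ratio 1.36, adjusted p = 0.195, Fisher's exact test). X was higher in each replicate's promoter peaks, by 2.44 points ± 0.72 (SD, n = 3). In windows of the same width 500 bp to either side of the X summits the word was present at 1.60% on average, so the summits had it 3.84-fold more often. The same fold on the autosomes was 4.54. Of all X coding starts, 3.08% had it within 50 bp, and 1.56% of autosomal starts.

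The X peaks with CACGTG were mostly strong promoter peaks. Their median signal was 287.9 (111.5 to 589.7), against 169.9 for the X peaks without it, and 43 of the 48 lay at promoters. Of the 195 strongest X peaks 29 had the word (14.9%, Wilson interval 10.6 to 20.5%), and of the 195 weakest 6 did (3.08%, 1.42 to 6.55%), with an odds ratio of 5.50 (two-sided Fisher's exact test, p = 5.7e-05). The 2 groups of 195 between them were as low as the weakest, at 3.08 and 3.59%. On the autosomes the odds ratio was 3.97, with 13.2 and 3.68%; whether the X value differs from it was not tested. Leaving out a replicate gave X odds ratios from 4.25 (without replicate 3) to 17.8 (without replicate 2), with the value without replicate 1 in between. These values come from smaller lists of 449 to 494 X peaks, ranked by the signal of a single replicate. The strong groups of those lists had the word at 22.8 to 23.2% whichever replicate was left out, and the weak groups at 1.63 to 6.61%. The strongest X peak with the word, at CG9281 and CG15601, had a signal of 589.7, and 19 X peaks were stronger.

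**Figure D4:**
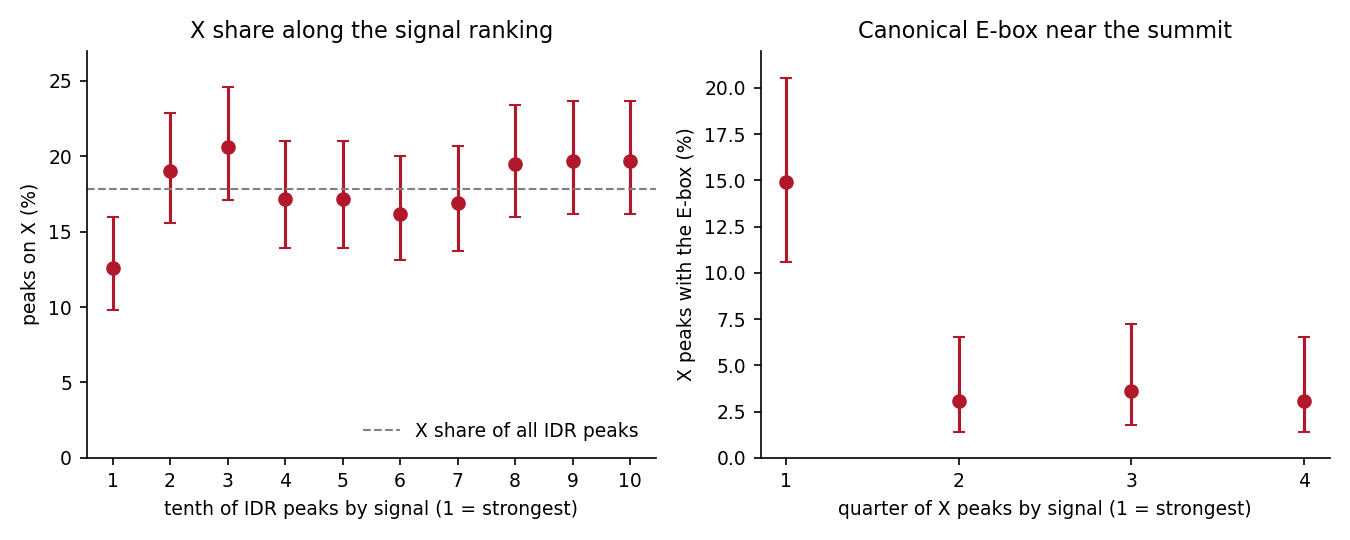
Left: share of peaks that lie on X (%) in 10 equal groups of the IDR list by signal, from the strongest (1), with 95% Wilson intervals; the strongest group is at 12.6%, the X share of all peaks (dashed) is 17.8%. Right: share of X peaks with CACGTG within 50 bp of the summit (%) in 4 equal groups of X peaks by signal; the strongest group is at 14.9% and the others at 3.08 to 3.59%.

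Other words were searched in the same windows on both strands, and none differed past the threshold after adjustment. The non-canonical E-box CACGCG lay at 7.18% of X and 4.87% of autosomal peaks (odds ratio 1.51), and CATGTG at 9.62% and 6.93% (odds ratio 1.43), both with an adjusted p = 0.0524 in Fisher's exact test. CAGCTG, an E-box of other helix-loop-helix proteins, was lower on X, at 5.26% against 7.52% (adjusted p = 0.0857, Fisher's exact test). X was higher for CACGCG and CATGTG and lower for CAGCTG in each of the 3 replicates. TATCGATA, the element of the promoter factor DREF, lay at 6.15% and 4.40% (adjusted p = 0.115, Fisher's exact test); X peaks had it 16.0-fold more often at the summit than in the flanks, a value that rests on 6 flank matches, and autosomal peaks 7.52-fold. Replicate 3 was the lowest at 78.0% of X peaks with that word, as at those with CACGTG. The repeat GAGAGAG, bound by GAGA factor and by the CLAMP protein of dosage compensation, occurs 35.1 times per 100 kb on X and 21.6 on the autosomes. Yet it lay at 2.95% of X summits, close to the 3.08% of their flanks. For GGTCACAC, the Zelda word CAGGTAG and the control palindromes AGCGCT (odds ratio 0.556), TCCGGA (0.792) and GTGCAC (1.06), the adjusted p ranged from 0.195 to 0.866 (Fisher's exact test). The controls were not alike against the flanks. GTGCAC was 2.06-fold as frequent at X summits and 1.98-fold at autosomal ones, where CACGCG was at 1.93 and 1.84. On X, AGCGCT and TCCGGA were at 0.69 and 0.455.

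Along the chromosome, the X peaks were spaced much like those of the autosomes. The median distance between neighbouring summits was 9372 bp on X and 9312 bp on the autosomes, and 59.0% and 59.1% of peaks had a neighbour within 5 kb. Gaps of up to 1 kb made up 12.1% on X (94 gaps) and 13.3% on the autosomes (478), and the shortest was 199 bp on both. The densest 100 kb of X, chrX:7240001-7340000, held 16 peaks with signals of 116.3 to 472.6. The window holds part of CG1677 and the genes nested in it, and 4 of its 11 coding genes were bound: CG1677 and CG2059 by a shared peak of 335.1, CBP at 472.6 and unc-119 at 116.3. The window chrX:3680001-3780000 held 14 peaks over only 3 coding genes, Mnt, Tlk and Rala, all of them bound. Another, chrX:2050001-2150000, held 15, among them those of ph-p, ph-d and csw. The longest stretch without a peak was 849548 bp, between chrX:21631722 and chrX:22481270. It has 28 coding genes, among them Usp2, wap and tilB, and it lies towards the centromere. Beyond 22 Mb there were 2 peaks and 59 coding genes; how well reads can be placed there was not tested.

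Both X-linked genes of the Myc network carried several peaks. The Myc promoter had a modest peak 38 bp downstream of the start, with a signal of 159.9 and relative signals of 1.22, 1.07 and 0.376, so that replicate 3 was far below the others. Within 20 kb of that start there were 10 peaks. Of these, 6 of the intergenic class lay upstream, at -17.8, -15.4, -15.1, -12.5, -9.30 and -5.69 kb, with signals of 230.9 to 422.8, all above the promoter peak. They make up 6 of the 52 intergenic X peaks, and the peak at -9.30 kb lay inside the non-coding gene CR46243. Another 3 lay in Myc introns, at 5.55, 7.98 and 8.73 kb, with signals of 171.6, 121.2 and 438.2. None of the 10 had CACGTG. The interval carried by the transgene is not given in the sources used here, and the part of its extra copies in these peaks was not tested. Mnt had a promoter peak of 154.5, with CACGTG, 189 bp upstream of an internal start (-189 bp) and so inside the gene. Its relative signals were 0.686, 0.791 and 0.986. Mnt also had 4 intron peaks of 133.5 to 192.5.

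**Figure D5:**
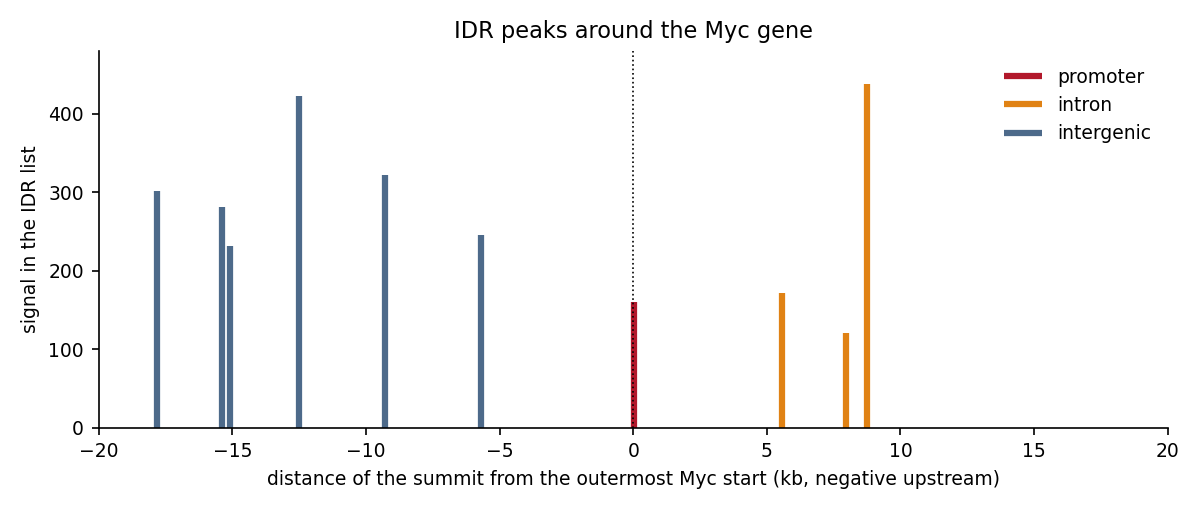
Signal of the 10 IDR peaks within 20 kb of the outermost start of Myc, by distance of the summit from that start (kb, negative upstream) and by class. The 6 intergenic peaks upstream (230.9 to 422.8) and the intron peak at 8.73 kb (438.2) are higher than the promoter peak (159.9).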

How the data were processed

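Peaks were mapped in 3 biological replicates of tagged Myc, and the narrowPeak lists deposited by the authors for dm6 were used. The signal of a peak is the score of the authors' peak caller, and the deposited −log10 q value only described the lists. Lists kept at a relaxed threshold exist per replicate and pooled; the IDR list was derived from them, per the deposited file listing. The aligner, caller, IDR threshold and score scaling are not given in the sources here, nor is it stated whether the scaling allows for the single X of males. Read counts were not used, so depth is unknown; Wilson intervals cover counting error only.

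Starts came from Ensembl release 115 and sequences from the RefSeq copy of dm6. Classes followed the order promoter, exon, intron, intergenic, and each DNA word was looked for, on either strand, up to 50 bp from the summit. X was compared with 2L, 2R, 3L, 3R and 4 by two-sided Fisher's exact tests over peaks or genes, with Benjamini-Hochberg adjustment over 20 tests (threshold 0.05). Replicate values came from the 4371 strongest peaks of each relaxed list. Without a replicate, the summits of the lower-numbered remaining list with a partner within 100 bp in the other were used. The tests were checked on simulated independent counts, with shares that were equal or further apart than those that passed here. This check did not cover dependence between neighbouring peaks or smaller differences. Python 3.11.15 with scipy 1.17.1, pandas 2.3.3 and statsmodels 0.14.6 was used.

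Members, gene lists and words were chosen with earlier results of these data known. Lists were defined by symbols. Genes were named by rule: those of the 10 strongest X promoter peaks and the 5 strongest others, the 3 strongest X members of each list with unbound members where 5 or fewer, Myc, Mnt, roX1, roX2, mof, Sxl, N, w, y, r, Zw and Polr2A, and genes of the densest window and longest gap. Other names were chosen after their values were seen. Alternatives for introns and intergenic peaks were added after seeing the data.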

Additional observations from a re-analysis of the deposited data

How the results depend on the processing

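The excess of intron peaks on X kept its direction and its call against each large arm alone (odds ratios 1.53 to 1.66), in the stronger part of the list (1.92), with promoter windows of 250 and 1000 bp (1.63 and 1.64) and without each replicate (1.78 to 1.85). Counted over genes it did not pass within lengths of 5 to 20 kb (1.17) or above 20 kb (1.28), where fewer genes were tested. The lower promoter share lost its call against 2L (0.857) and 3L (0.902) and gave 0.672 to 0.694 without a replicate. The lower intergenic share lost its call against 2R (0.805) and in the stronger part of the list (0.771), turned to 1.02 against 3R, and ranged from 0.663 to 0.731 without a replicate, with the call lost without replicate 1 (0.717) or 3 (0.731), where fewer peaks were tested; the cause was not tested. The comparisons that were not called crossed an odds ratio of 1 in places: CACGTG at 0.947 against 2R and 0.873 with a 25 bp window; signal at 1.02 against 3L, and 0.846 to 1.02 without a replicate; presence in all top lists at 1.03 against 3L and 1.04 in the stronger part; bound genes at 0.951 against 3R, 0.944 in the stronger part, 0.984 with a 250 bp window, and 0.94 to 1.01 without a replicate. The relaxed lists held 4133 X peaks pooled and 4899, 4191 and 4278 in replicates 1, 2 and 3, where the IDR list held 780. The CACGTG odds ratio between strong and weak X peaks was 3.51 for the 260 strongest against the 260 weakest. No paired analysis was possible because the samples form 1 group; X was compared with the autosomes within each replicate, and differed by -6.38 ± 2.20 points at promoters and -3.26 ± 1.15 in intergenic sequence (SD, n = 3), lower in all 3 (exact sign-flip p = 0.25, the smallest possible).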

Other observations

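X genes had CACGTG at their starts more often than autosomal genes, also among genes without an IDR promoter peak. Within 50 bp of the outermost start, 77 of 2196 X genes (3.51%) and 199 of 11749 autosomal genes (1.69%) had the word. Among unbound genes the shares were 2.48% (40 of 1615) and 0.608%. Of those 40 X genes, 11 were copies of Stellate, a tandem array of near-identical genes of which the annotation lists 12, and whether reads can be placed in it was not tested. With Stellate left out, the share was 1.81% of unbound X genes and 3.02% of all X genes. Other X genes with the word and no IDR promoter peak included Ran, ovo, NetA and CG2972, the unbound member of the ribosome biogenesis list. Of these, Ran had an IDR intron peak of 229.1 at 563 bp from its start, and NetA had 2 IDR peaks in its introns. At ovo and CG2972 the promoter peaks were in the relaxed list only, which by its deposited name also holds background. TATCGATA was also commoner at X starts, at 7.33% against 5.23%. These counts were made after seeing the data and carry no test.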
